A study of Rattus norvegicus with 2 samples.

Results

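The uroplakin genes and the transcription factors of urothelial differentiation were examined in RNA from rat urine, in 1 library labelled WT and 1 labelled UUO. The genes were chosen by name, 5 uroplakins (Upk1a, Upk1b, Upk2, Upk3a and Upk3b) and 5 transcription factors (Grhl3, Gata3, Foxa1, Pparg and Elf3). Through their NCBI gene IDs 9 of the 10 were found among the 16484 number-only gene IDs of the table, and each lay on the chromosome that RefSeq gives for it. Upk3b (ID 360790) was not found by its ID and has no value here. Both libraries came from Sprague Dawley rats, labelled as 8 weeks of age (postnatal day 56), with samples taken 2 weeks after surgery. In UUO (unilateral ureteral obstruction) the right ureter was tied off, and WT stands for rats that had the same operation without the ligation, so that the groups differ in surgery and not in genotype. By the study's methods, urine came by ureter catheterisation in either group, what had accumulated at first was discarded, and samples were centrifuged. How many rats stand behind a library is not stated. The column names of the table are abbreviations, and the one that contains "Rf" was taken as UUO, from the renal fibrosis of the series title alone. If that reading were wrong, every direction given here would turn around.

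The urothelium is the stratified epithelium that lines the renal pelvis, ureter and bladder. Its surface umbrella cells carry plaques built from uroplakins. UPK1A and UPK1B are tetraspanins, membrane proteins that cross the membrane several times and assemble with a partner uroplakin. UPK1A pairs with UPK2, and UPK1B pairs with UPK3A or UPK3B. GRHL3, a grainyhead factor, is needed for umbrella cells to mature, and PPARG, a nuclear receptor that acts with RXRA, works together with FOXA1, GATA3 and the ETS factor ELF3 to switch on urothelial genes. GATA3 and ELF3 are also made in the collecting duct, PPARG in fat, and UPK1B and UPK3B in mesothelium.

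Upk1b stood above Upk1a in WT and below it in UUO urine, and Upk3a, the partner of Upk1b, was highest in both. For this reason promoter windows are shown for Upk1a, Upk1b and Upk3a. Each runs from 250 bases before to 50 bases after the start of the gene, and was taken from RefSeq on GRCr8, a later assembly than the rn5 build of the expression table. Capitals mark letters of motifs named for the factor families above, searched on both strands. The grainyhead motif was AACNNGTT. The forkhead motif was TGTTTAC or, as an equal choice, TGTTTGC. The zinc finger motif of the GATA family was AGATAA or, likewise, TGATAA. The nuclear receptor motif was AGGTCA, and the motif of ETS factors was AGGAAG.
Upk1a (GRCr8 chr1:94997531-94997830, minus strand): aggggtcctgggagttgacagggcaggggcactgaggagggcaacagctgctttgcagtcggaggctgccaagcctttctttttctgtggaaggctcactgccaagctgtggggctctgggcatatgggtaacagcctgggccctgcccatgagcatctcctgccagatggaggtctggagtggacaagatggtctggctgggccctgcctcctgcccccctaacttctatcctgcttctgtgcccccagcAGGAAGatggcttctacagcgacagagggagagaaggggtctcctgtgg
Upk1b (GRCr8 chr11:75459131-75459430, plus strand): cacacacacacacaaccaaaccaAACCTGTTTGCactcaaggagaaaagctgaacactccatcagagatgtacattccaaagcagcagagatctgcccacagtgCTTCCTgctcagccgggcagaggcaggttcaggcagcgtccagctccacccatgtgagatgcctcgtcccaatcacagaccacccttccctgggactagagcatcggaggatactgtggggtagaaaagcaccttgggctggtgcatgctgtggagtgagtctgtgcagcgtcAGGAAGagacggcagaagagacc
Upk3a (GRCr8 chr7:118014540-118014839, plus strand): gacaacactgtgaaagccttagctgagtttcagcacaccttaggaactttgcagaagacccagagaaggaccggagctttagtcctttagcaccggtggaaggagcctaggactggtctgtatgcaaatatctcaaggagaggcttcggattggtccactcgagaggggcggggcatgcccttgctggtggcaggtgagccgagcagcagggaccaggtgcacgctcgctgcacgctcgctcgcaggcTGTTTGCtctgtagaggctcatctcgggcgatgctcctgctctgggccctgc
The Upk1b window holds AACCTGTT 227 bases before the start, and the forkhead letters TGTTTGC 223 bases before it, so that both overlap. The forkhead letters also stand 2 bases before the start of Upk3a. Of 33469 windows in the RefSeq table, 4.23% hold the grainyhead motif and 8.43% a forkhead motif. The ETS motif is in the windows of Upk1a and Upk1b and in 34.5% of all windows. Among the 9 windows of the gene set, which cover 8 genes since Pparg has more than 1 and Upk2 and Foxa1 have none, 0 hold the GATA or the nuclear receptor letters, found in 18.9% and 16.2% of all windows. Such matches are a description of the sequence and not of binding.

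All 9 measured genes were detected in both libraries, at an FPKM of at least 1. FPKM counts fragments per kilobase of transcript, scaled by the mapped fragments of the library, so that levels can be compared between genes. Of all number-only genes, 47.3% were detected in WT urine, 56.3% in UUO urine and 43.8% in both. The uroplakins were among the most abundant annotated transcripts of rat urine. Their ranks among the 16484 genes ran from 128 to 798 in WT urine and from 35 to 157 in UUO urine. The transcription factors ranked from 474 to 4274 in WT and from 117 to 1971 in UUO urine.

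With a single library on each side, differences have no replicate check, and no test between groups was made. The steps in the FPKM values gave 0.542 FPKM in WT and 0.497 in UUO urine for 1 fragment on a transcript of 1000 bp. By these steps the 9 genes stood on 25 to 575 fragments per kilobase in WT and on 38 to 938 in UUO urine. The 95% intervals given below are exact intervals for such counts on 1 kb of transcript, since transcript lengths are not in the table. They cover counting error only, and not the spread between animals. A longer transcript would hold more fragments at the same FPKM, and its interval would be narrower.

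**Figure D1:**
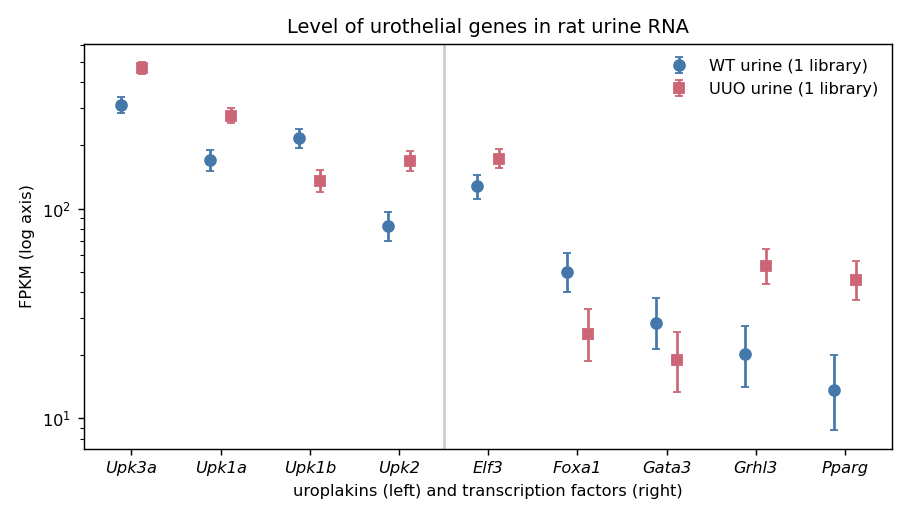
FPKM on a log axis for the 4 uroplakins (left) and 5 transcription factors (right) in the WT library (blue circles) and the UUO library (red squares), with bars for the exact 95% Poisson interval of the count on 1 kb of transcript. Upk3a was highest in both libraries, and Upk1b, Foxa1 and Gata3 are the 3 genes whose UUO value lies below the WT value.

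Upk3a, the uroplakin with a long cytoplasmic tail (ID 315190, rn5 chr7:125634479-125639553), was at 311.8 FPKM in WT, against 466 in UUO urine. Its value was 1.49-fold higher in UUO urine, with an interval of 1.35 to 1.66. Upk1a (ID 365227, rn5 chr1:90215599-90223198) was at 169.5 FPKM in WT, against 277 in UUO urine. This was 1.63-fold higher, with an interval of 1.42 to 1.88. Both genes ranked higher in UUO urine, Upk3a at 35 against 128 and Upk1a at 72 against 311.

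Upk2, the small partner of UPK1A (ID 689093, rn5 chr8:47391875-47393868), was at 82.4 FPKM in WT, against 168.6 in UUO urine. As deposited it had the greatest relative difference of the uroplakins, 2.05-fold higher with an interval of 1.68 to 2.49, and ranked 798 in WT and 120 in UUO urine. With the libraries set to the same level of keratins Upk1b differed more, at -1.27 against 0.41 for Upk2 on the log2 scale. Upk1b (ID 303924, rn5 chr11:67555642-67586451) was lower in UUO urine as deposited. It was at 215.7 in WT, against 136.0 in UUO urine, which is 1.59-fold lower with an interval of 1.36 to 1.86. This direction depended on the scaling, and turned to 0.17 to 0.23 higher on the log2 scale under 3 of 5 rescalings. Even so its rank was 223 in WT and 157 in UUO urine, while the values of most genes were lower in the UUO library. Summed over the 4 uroplakins, FPKM came to 779 in WT, against 1047 in UUO urine, 1.34-fold higher.

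The make-up of the uroplakin transcripts differed between the libraries. Upk1b held 27.7% of the uroplakin sum in WT and 13.0% in UUO urine. Upk2 held 10.6% and 16.1%, Upk1a 21.7% and 26.5%, and Upk3a 40.0% and 44.5%. Ratios within a library do not depend on how the library was scaled. Upk1a over Upk2, the transcripts of one protein pair, was 2.06 in WT (interval 1.69 to 2.52) and 1.64 in UUO urine (1.44 to 1.89), and these intervals overlap. Upk3a over Upk1b, the transcripts of the other pair, was 1.45 in WT (1.27 to 1.65) and 3.43 in UUO urine (2.99 to 3.93), without overlap. Between the tetraspanins, Upk1a over Upk1b was 0.786 in WT (0.676 to 0.914) and 2.04 in UUO urine (1.76 to 2.36), so that their order was exchanged. The ratios against Upk1b set a uroplakin that was higher in UUO urine as deposited against the only one that was lower. They therefore restate the differences of the single genes. Upk3a over Upk1a was 1.84 and 1.68, with intervals of 1.60 to 2.12 and 1.51 to 1.87.

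**Figure D2:**
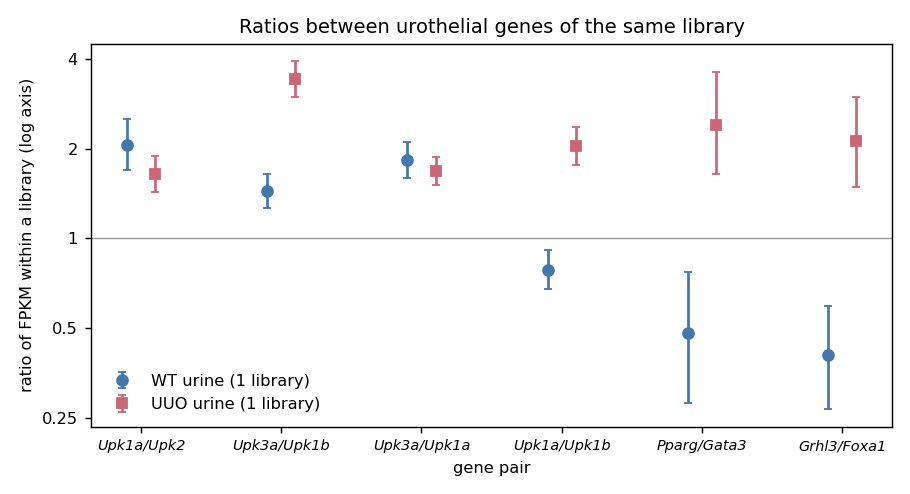
Ratio of FPKM between 2 genes of the same library, on a log axis, in WT (blue circles) and UUO urine (red squares), with exact 95% intervals for the counts on 1 kb of each transcript. Ratios against Upk1b, Pparg over Gata3 and Grhl3 over Foxa1 were higher in UUO urine, while Upk1a over Upk2 and Upk3a over Upk1a had overlapping intervals. The pairs of transcription factors and the pairs with Upk1b each set a gene that was higher in UUO urine against one that was lower.

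Among the transcription factors, Pparg differed most as deposited. At the same level of keratins Foxa1 (-1.55) and Gata3 (-1.14) differed more than Pparg (1.06) on the log2 scale. Pparg (ID 25664, rn5 chr4:210562947-210688585) was at 13.7 FPKM in WT, against 45.5 in UUO urine, 3.32-fold higher with an interval of 2.15 to 5.48. Grhl3 (ID 298555, rn5 chr5:157659405-157691263) was at 20.3 FPKM in WT, against 53.4 in UUO urine, 2.63-fold higher with an interval of 1.81 to 3.96. Pparg ranked 4274 in WT and 690 in UUO urine, and Grhl3 3290 and 540. Elf3 (ID 304815, rn5 chr13:57135473-57140400) was the most abundant factor in both libraries, with 127.6 FPKM in WT, against 172.8 in UUO urine. It was 1.35-fold higher, with an interval of 1.15 to 1.61.

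Foxa1, a forkhead pioneer factor (ID 25098, rn5 chr6:88041141-88074240), was at 50.01 FPKM in WT, against 25.1 in UUO urine. This was 1.99-fold lower, with an interval of 1.38 to 2.83. Its rank was 1427 in WT and 1432 in UUO urine, almost the same place in each library. Gata3, a zinc finger factor (ID 85471, rn5 chr17:74115945-74135216), was at 28.5 FPKM in WT, against 19.0 in UUO urine. It was 1.498-fold lower, but its interval of 0.984 to 2.37 includes equal values, and its direction turned under the same 3 rescalings as that of Upk1b. Within a library, Pparg over Gata3 was 0.482 in WT (0.281 to 0.773) and 2.40 in UUO urine (1.64 to 3.63). Grhl3 over Foxa1 was 0.406 in WT (0.267 to 0.595) and 2.13 in UUO urine (1.49 to 2.99). Each of these pairs sets a factor that was higher in UUO urine as deposited against one that was lower. A higher ratio in UUO urine was thus given by the choice of pairs.

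Ordered by level, WT urine had Upk3a, Upk1b, Upk1a, Elf3, Upk2, Foxa1, Gata3, Grhl3 and Pparg. For the neighbours Gata3 and Grhl3, and Grhl3 and Pparg, the intervals on 1 kb included equal values there. UUO urine had Upk3a, Upk1a, Elf3, Upk2, Upk1b, Grhl3, Pparg, Foxa1 and Gata3. In that order the intervals for Elf3 and Upk2, Grhl3 and Pparg, and Foxa1 and Gata3 did so too. Below Elf3, Foxa1 and Gata3 thus stood ahead in WT, and Grhl3 and Pparg ahead in UUO urine. The interval on 1 kb for the lead of Gata3 over Grhl3 in WT included equal values.

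Differences were expressed as log2(FPKM + 1), UUO minus WT. Upk2 (1.02), Grhl3 (1.35) and Pparg (1.66) were at least 2-fold higher, and 0 of the 9 genes were at least 2-fold lower, Foxa1 coming closest at -0.97. The remaining values were 0.71 for Upk1a, 0.58 for Upk3a, 0.44 for Elf3, -0.56 for Gata3 and -0.66 for Upk1b. Values were higher in UUO urine for 6 of the 9 genes, and for 38.9% of all genes with a level of at least 1 in one or both libraries. Among those 9853 number-only genes, 25.7% were at least 2-fold higher and 36.5% at least 2-fold lower in UUO urine. The median was 0.64 for the uroplakins and 0.44 for the transcription factors, against -0.51 for the 9853 genes together.

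Values of the UUO library were lower as a whole. Over the 7218 genes detected in both libraries the median log2 difference was -0.81, and haemoglobin (6 genes) made up 32.6% of the FPKM total of number-only genes in UUO against 0.950% in WT urine. Relative to that median, Pparg was at 2.47, Grhl3 at 2.16, Upk2 at 1.83, Upk1a at 1.52, Upk3a at 1.39, Elf3 at 1.25, Gata3 at 0.25, Upk1b at 0.15 and Foxa1 at -0.16. Thus 8 of the 9 genes lay above it, as did 58.0% of the 9853 genes. Upk1b and Gata3 were lower in UUO urine as deposited, and higher after 3 other scalings, the median ratio (0.23 and 0.30), the 75th percentile (0.17 and 0.25) and equal sums without haemoglobin (0.20 and 0.28). Pparg, Grhl3, Upk2 and Upk1a were higher under every scaling tried, and Foxa1 was lower under each, at -1.55 to -0.097. Upk3a and Elf3 were higher except when the libraries were set to the same level of keratins, where the differences were -0.035 and -0.17. With that scaling Upk1a was at only 0.094 and the uroplakin median at 0.0295.

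**Figure D3:**
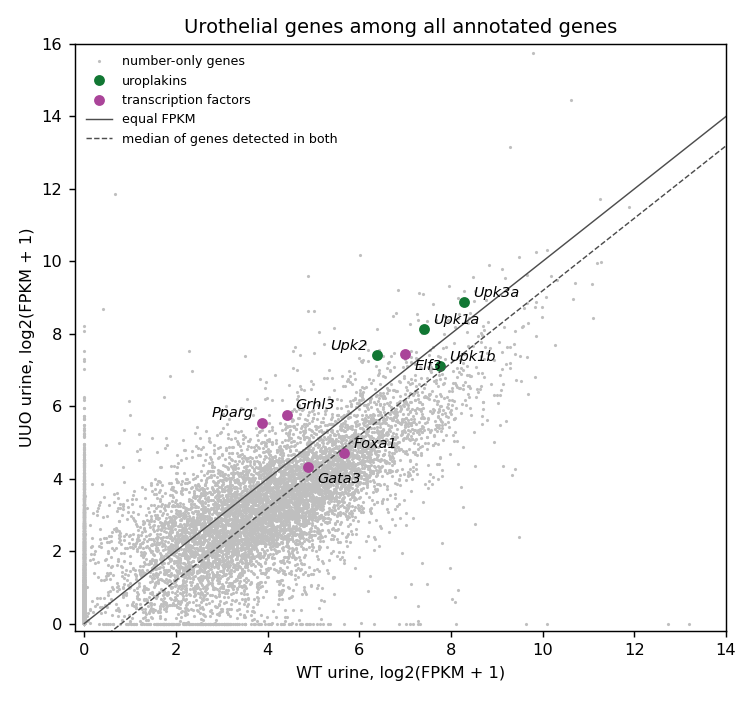
Each point is 1 number-only gene, with log2(FPKM + 1) in WT urine on the x axis and in UUO urine on the y axis; uroplakins are green and transcription factors purple, the solid line marks equal FPKM and the dashed line the median difference of -0.81. Foxa1, Gata3 and Upk1b lie near the dashed line and the other 6 genes above the solid line.

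**Figure D4:**
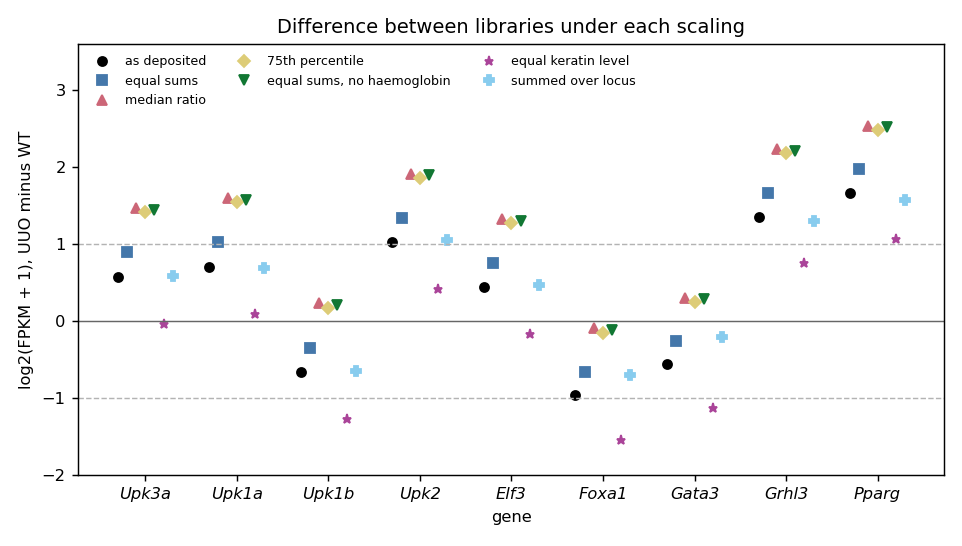
Difference of log2(FPKM + 1), UUO minus WT, for each gene as deposited (black), under 5 rescalings of the UUO values and with FPKM summed over the locus; dashed lines mark 2-fold. Pparg stays highest and Foxa1 lowest within each scaling, while the scaling moves all genes up or down together.

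Each locus holds 3 to 7 features of the table, the other entries being noncoding or assembled, and reads there may have been split between entries. For the uroplakins the other entries held at most 5.53% of the locus sum. For Foxa1 they held 28.5% in WT and 40.8% in UUO urine, and for Gata3 6.66% and 27.8%. Summed over the locus, FPKM was 70.0 and 42.5 for Foxa1 and 30.5 and 26.3 for Gata3. A gene-level noncoding entry and its transcripts can count the same reads, so such sums are upper values. No direction changed.

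Other urothelial transcription factors, a list of 13 measured genes, lay on both sides of equal levels. In UUO urine 3 were at least 2-fold higher and 5 at least 2-fold lower, and the median log2 difference was -0.17. Over all genes the shares were 25.7% and 36.5%. Of the 3 higher genes, 1 was listed at 0 in WT and passed only through its UUO value of 1.10. Over its locus that gene was at -0.29. Rxra, the partner of PPARG, was at 81.0 FPKM in WT, against 65.5 in UUO urine. Grhl2, the paralogue of Grhl3 that is broadly made in epithelia, was at 74.8 FPKM in WT, against 7.57 in UUO urine, 9.88-fold lower, while Grhl3 was higher. Ehf, an ETS factor related to Elf3, was at 74.5 FPKM in WT, against 29.4 in UUO urine. Id2, an inhibitor of helix-loop-helix factors, had 62.7 and 22.1. Tp63, the basal-layer factor, had 1.92 in WT and 14.9 in UUO urine, and was chosen after its values were seen.

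Of 8 genes for the transport of uroplakins to the cell surface 6 were measured, and all 6 were detected in both libraries. In UUO urine 0 were at least 2-fold higher and 2 at least 2-fold lower, beside 25.7% and 36.5% over all genes. Mal, a vesicle protein needed for uroplakins to reach the apical membrane, was at 139.1 FPKM in WT, against 183.7 in UUO urine. Rab8a, a GTPase of apical transport, had 52.8 and 19.7, Rab11a, a GTPase of recycling endosomes, 26.9 and 42.0, and the motor gene Myo5b 38.2 and 30.5. The median was -0.57.

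PPARG targets were mixed. Of 7 that reached an FPKM of 1 anywhere, 4 were at least 2-fold higher and 2 at least 2-fold lower in UUO urine. Over all genes the shares were 25.7% and 36.5%. Of the 4 higher genes, 3 were listed at 0 in WT and passed only through their UUO values. Fabp4, a fatty acid carrier, was at 99.7 FPKM in WT, against 147.3 in UUO urine, and the lipid droplet gene Plin2 22.7 and 60.1. Fabp5 was listed at 0 in WT and at 51.7 in UUO urine, while the lipid droplet gene Cidec was lower, at 38.4 and 11.4. A listed 0 can be a failed estimate, and Gapdh, which every cell uses, stood at only 0.406 in WT and 0.367 in UUO urine.

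Markers of the urothelial layers gave different pictures. In the basal list, 6 of 8 genes were at least 2-fold higher and 0 lower, with a median of 1.41, beside 25.7% and 36.5% over all genes. Of those 6, Krt5, Krt17 and Cd44 were listed at 0 in WT and passed only through their UUO values of 51.8, 24.2 and 12.4. Krt15 was at 165.0 FPKM in WT, against 256.8 in UUO urine, Krt14 14.2 and 46.0, and the laminin receptor chain Itga6 10.9 and 22.8. The merged locus of Krt5 held 25 features, and the others summed to 316.9 in WT and 294 in UUO urine. With all features of the locus summed, the log2 difference of Krt5 was 0.13, and that of Itgb4, an integrin chain, turned from 1.18 to -1.09. Krt17, Cd44 and Itgb4 were named after their values were seen. In the umbrella and intermediate list, 1 of 7 genes was at least 2-fold higher and 3 were lower, with a median of 0.36, beside 25.7% and 36.5% over all genes. The keratins of simple epithelium and umbrella cells were abundant, with an FPKM of 578 and 748 for Krt8, 357 and 752 for Krt19, 368 and 579 for Krt7 and 290.0 and 371 for Krt18 in WT and UUO urine. Other genes of the list were lower. Psca had 557 in WT and 97.6 in UUO urine, 5.71-fold lower, and Adh1c had 7.60 and 0.782, both named after their values were seen. Krt20, the umbrella cell keratin, had 26.4 in WT and 12.5 in UUO urine and was chosen after its values were seen. Its difference of -1.02 fell short of 2-fold over the locus, at -0.94.

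**Figure D5:**
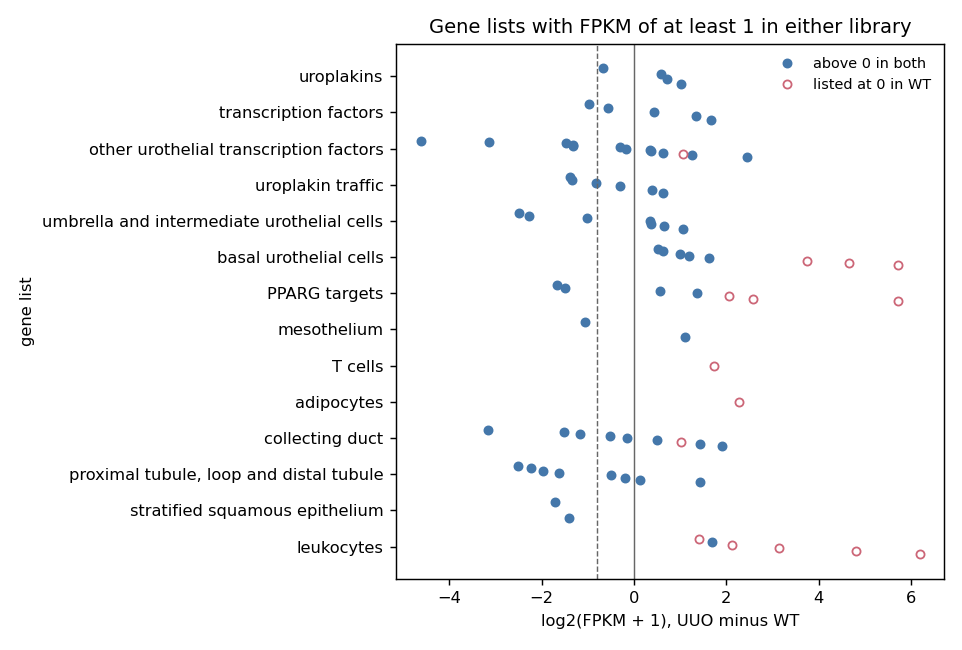
Difference of log2(FPKM + 1), UUO minus WT, for genes that reach an FPKM of 1 in one or both libraries, by gene list; filled points are above 0 in both libraries, open points are listed at 0 in WT, and the dashed line is the median difference of -0.81. Basal and leukocyte genes lie to the right of 0 as deposited, 3 and 5 of them listed at 0 in WT, and transcription factors lie on both sides.

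Markers of other cell types were examined as well. The urine was centrifuged, and whether its RNA came from cells was not tested. Fewer cells of a type and less RNA per cell also cannot be told apart in such samples. T cell markers, read beside Gata3, were at 0 in WT for 6 of 6 genes and in UUO urine for 4 of 6. In UUO urine Lck was at 2.32 FPKM and Cd3g at 0.788, and their loci summed to 4.30 and 1.86. The detected genes numbered 0 of 6 in WT and 1 of 6 in UUO urine, beside 47.3% and 56.3% over all genes. Adipocyte markers, read beside Pparg, were at 0 in WT for 5 of 5, and in UUO urine they summed to 4.17 FPKM, of which Lpl held 3.87. Adipoq was at 0.0417 there and Lep at 0.264, but the locus of Lep summed to 20.7 in UUO urine. Another gene of the list, at 0 in both libraries, lay in a merged locus of 82 features. That locus summed to 273.6 in WT and 185.1 in UUO urine, so a listed 0 there may not mean absence. Of the mesothelial list Msln was at 17.0 FPKM in WT, against 37.5 in UUO urine, with Wt1 at 3.96 and 1.39 (3.96 and 2.24 over its locus), Calb2 at 0 and 0.720 and Gpm6a at 0 and 0.164.

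Collecting duct genes were present in both libraries, 8 of 10 detected in each, with 3 at least 2-fold higher and 3 lower in UUO urine. Over all genes the shares were 25.7% and 36.5%. Of the 3 higher genes, 1 was listed at 0 in WT and passed only through its UUO value of 1.02. The listed chromosome of that gene is not the one RefSeq gives. The water channel gene Aqp3, which urothelium also makes, was at 85.1 FPKM in WT, against 120.7 in UUO urine. The proton pump gene Atp6v1b1 had 90.1 and 30.7, in a locus whose features summed to 8477 and 1720, and Hsd11b2, the enzyme that inactivates glucocorticoids, 9.67 and 39.2. Over its locus Hsd11b2 summed to 74.9 and 71.3, a log2 difference of -0.071, so that it was no longer among the 3 higher genes. Aqp2 had 50.2 and 35.0, but its listed chromosome is not the one RefSeq gives. Genes of the other tubule segments were lower in 4 of 8 and higher in 1 of 8, at least 2-fold each, beside 36.5% and 25.7% over all genes. Umod, the uromodulin gene, was at 30.1 and 26.3, the calcium buffer gene Calb1 at 12.6 and 35.6, Lrp2, the endocytic receptor megalin, at 38.7 and 5.995, and the phosphate transporter gene Slc34a1 at 32.7 and 6.24.

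Leukocyte genes, 6 of 6, were at least 2-fold higher in UUO urine, beside 25.7% over all genes, and summed to 7.55 in WT and 137.9 in UUO urine. Of these, 5 were listed at 0 in WT and passed only through their UUO values. Lyz2 was at 7.55 and 26.5, while S100a9, S100a8 and Cd68 were listed at 0 in WT and at 71.7, 27.0 and 7.87 in UUO urine. All 6 red-cell genes, Hbb and Hba-a1 among them, were at least 2-fold higher, beside the same 25.7%, with sums of 3165 and 88682. Of the squamous list Sprr1a had 291 in WT and 88.9 in UUO urine, Krt4 12.7 and 4.195, and Krt10 and Ivl were at 0 in WT and under 1 in UUO urine. Of the male accessory gland list Andpro was at 792 in WT and at 0 in UUO urine. The detected genes of that list numbered 2 of 6 and 0 of 6, beside 47.3% and 56.3% over all genes. By the study's methods urine in either group came from the ureter, and the source of the Andpro transcripts in the WT library was not tested. FOXA1 is made in prostate as well. The part of these other cell types in the values of the urothelial genes was not tested.

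By likeness of level, genes near to Upk3a, the highest of the set, included Rps4x-ps9 (282 in WT and 505 in UUO urine) and Rps7 (362 and 480), at distances of 0.19 and 0.22 on log2(FPKM + 1) over the 2 libraries. Between 2 and 10 genes lay within 0.25 of each uroplakin, Elf3, Grhl3 and Pparg, against 97 for Gata3 and 82 for Foxa1. With 2 libraries such nearness describes levels only.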

How the data were processed

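The authors aligned read pairs with TopHat2 (2.0.9) and Bowtie2 (2.0.6), assembled transcripts with Scripture and Cufflinks (2.1.1), and compared the libraries with Cuffdiff (2.1.1). Depletion of rRNA and directional libraries are given in the methods for kidney tissue, and not separately for urine. The submitters' processing notes name the build rn5, and the annotation is not given in the sources used here. The authors deposited FPKM, with 1 value for a feature in each library and the normalising total left unstated. Fold changes, p-values and q-values of the authors' comparison are also in the table and were not used. For urine RNA the labels name Trizol and the study's methods a column kit.

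The genes and lists were chosen with earlier results of these data known. Symbols came from a RefSeq table of GRCr8, which matched 16329 of 16484 number-only IDs, and only its chromosomes and the promoter windows were used beyond names. Differences used a pseudocount of 1, detection an FPKM of at least 1, and a called difference 2-fold. Depth was fitted from FPKM steps of assembled features alone at a locus of 400 to 1200 bp, as whole fragments within 0.1. In WT 93.5% of 186 values were whole at a total of 2116000, and in UUO 99.4% of 3530 at 2440000. These may not be the sequenced depths, and PCR copies were not told apart. Intervals were exact binomial for ratios and exact Poisson for levels. All members were named, and of each list the 4 with the highest mean FPKM, and the 3 genes nearest in level to the highest member, except that 1 gene of the male accessory gland list and 1 of the nearest genes are not reported here and genes at 0 in both libraries are given as counts. The steps were tested on simulated data. Python 3.11.15, SciPy 1.17.1 and pandas 2.3.3 were used.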

Additional observations from a re-analysis of the deposited data

How the results depend on the processing

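No paired analysis was possible because the comparison sets 1 library against 1. A pseudocount of 10 put Upk2 under 2-fold, at 0.95. Rescaling to equal sums put Upk1a past it, at 1.02. The median ratio, the 75th percentile and equal sums without haemoglobin (the last chosen after seeing the data) multiply UUO values by 1.86, 1.79 and 1.83. They gave, in that order, 1.60, 1.54 and 1.57 for Upk1a, 1.47, 1.41 and 1.45 for Upk3a, 1.33, 1.27 and 1.30 for Elf3, 1.53, 1.48 and 1.51 for the uroplakin median and 1.33, 1.27 and 1.30 for the transcription factor median. Upk1b reversed to 0.23, 0.17 and 0.20 and Gata3 to 0.30, 0.25 and 0.28, and 6 genes were at least 2-fold higher under each. Setting Krt7, Krt8, Krt18 and Krt19 to the same geometric mean (385 in WT and 590 in UUO urine as deposited), also chosen after seeing the data, gave 0.41 for Upk2, 0.75 for Grhl3, -1.27 for Upk1b, -1.14 for Gata3 and -1.55 for Foxa1. Upk1a was at 0.094 and the uroplakin median at 0.0295 under this scaling. Upk3a reversed to -0.035, Elf3 and the transcription factor median to -0.17, and 1 gene was at least 2-fold higher and 3 lower. A 4-fold limit left 0 genes higher. Each rescaling multiplies all UUO values by 1 factor, so that order and ratios within a library stay as they are. Depth limits the low genes, with 25 fragments per kilobase for Pparg and 37 for Grhl3 in WT and 38 for Gata3 in UUO urine.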
